A study of Mus musculus with 4 samples.

Results

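Inflammatory chemokine ligands are small secreted proteins that guide leukocytes along a concentration gradient. The 10 described here are Cxcl1, Cxcl2, Cxcl10, Ccl2, Ccl3, Ccl4, Ccl6, Ccl7, Ccl8 and Ccl9, taken by name from the 32285 genes that all 4 feature tables list. They were read in the myeloid, stromal, glial and vascular cells of an injured mouse growth plate and of lumbar sensory ganglia. The groups were 1NMPP1 growth plate, vehicle growth plate, 1NMPP1 dorsal root ganglia (DRG) and vehicle DRG, with 1 library in each.

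Mice of all 4 groups carried the same engineered kinase allele, so the vehicle controls carry it too. The compound 1NMPP1 inhibits kinases that have been altered to bind it. It was injected into the peritoneum at 17 µg per g body weight, 48 h and 2 h before surgery, and then given at 40 µM in the drinking water, while controls received vehicle with DMSO. Tissue was taken 7 days after injury. The growth plate libraries hold the distal end of the femur with the tissue around the injury, and the DRG libraries hold lumbar ganglia L1 to L5. The labels do not give the age or sex of the mice, or how many animals each library holds.

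Cxcl1 and Cxcl2 act on Cxcr2 and draw neutrophils. Cxcl10 is induced by interferon, and its receptor Cxcr3 sits mainly on activated T cells and natural killer cells. Ccl2 and Ccl7 act on Ccr2 and draw monocytes, and mouse Ccl8 acts on Ccr8. Ccl3 and Ccl4 draw monocytes, T cells and natural killer cells, and Ccl6 and Ccl9 are rodent chemokines that act on Ccr1. Many of these genes are switched on through the transcription factor NF-kappaB after signals such as interleukin 1 or tumour necrosis factor.

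The genes lie in 2 groups on the GRCm38 assembly, with positions from the GENCODE annotation. Cxcl1 at chr5:90891241-90893115 and Cxcl2 at chr5:90903871-90905938 are neighbours on the plus strand, 10.8 kb apart, and Cxcl10 lies at chr5:92346638-92348889 on the minus strand. The 7 Ccl genes lie within 1629 kb on chromosome 11. Ccl2 at chr11:82035571-82037453 and Ccl7 at chr11:82045712-82047525 are 8.26 kb apart on the plus strand. Ccl8 follows at chr11:82115185-82116799, also on the plus strand. Ccl9 at chr11:83572919-83578636, Ccl6 at chr11:83587882-83593087 and Ccl3 at chr11:83647844-83649355 are on the minus strand, and Ccl4 is at chr11:83662584-83664683 on the plus strand. Cxcl1, Cxcl2, Cxcl10, Ccl6 and Ccl9 have 4 exons and the others 3.

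RefSeq promoter sequences on GRCm38.p6 matched 7 of the 10 genes. The 250 bases before the RefSeq transcription start are shown for the CXC genes, since Cxcl1 and Cxcl2 are neighbours with unlike levels by class and Cxcl10 marks the glia. Capitals mark matches to the NF-kappaB consensus and, in Cxcl10, also to the interferon response element TTTCNNTTTC, with both strands searched. The windows are chr5:90890995-90891244 (plus strand), chr5:90903649-90903898 (plus strand) and chr5:92348890-92349139 (minus strand).
Cxcl1: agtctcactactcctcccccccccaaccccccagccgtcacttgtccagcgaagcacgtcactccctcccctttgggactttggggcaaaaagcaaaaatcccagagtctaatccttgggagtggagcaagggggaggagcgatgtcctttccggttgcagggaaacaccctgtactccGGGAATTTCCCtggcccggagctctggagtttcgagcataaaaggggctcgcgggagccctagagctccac
Cxcl2: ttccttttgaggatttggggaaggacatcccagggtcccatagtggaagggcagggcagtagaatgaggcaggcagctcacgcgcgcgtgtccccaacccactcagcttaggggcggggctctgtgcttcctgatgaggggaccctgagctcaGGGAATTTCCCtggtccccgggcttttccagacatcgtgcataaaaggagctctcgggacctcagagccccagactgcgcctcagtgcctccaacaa
Cxcl10: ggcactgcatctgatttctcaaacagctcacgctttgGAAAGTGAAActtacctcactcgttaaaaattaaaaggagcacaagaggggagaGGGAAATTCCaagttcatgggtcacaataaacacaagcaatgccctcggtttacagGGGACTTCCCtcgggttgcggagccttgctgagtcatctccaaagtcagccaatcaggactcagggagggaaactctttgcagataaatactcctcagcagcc
The RefSeq start lies inside the GENCODE gene for both neighbours, so the window takes in 4 bases of Cxcl1 and 28 bases of Cxcl2. Distances are from the RefSeq start. The match of Cxcl1 begins 71 bases before the start and that of Cxcl2 97 bases before it, and the capitals hold overlapping matches on both strands with the same letters. Cxcl10 has NF-kappaB matches 159 and 103 bases before its start and the interferon element at 213 bases, on the opposite strand. Of 32851 RefSeq promoters of this length, 3.90% hold the NF-kappaB consensus and 2.98% the interferon element. Ccl9 also held an NF-kappaB match, 35 bases before its start, and no match was found in these windows of Ccl3, Ccl6 and Ccl8. A match is a description of letters and not a binding site.

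The libraries held 11807 barcodes for 1NMPP1 growth plate, 9560 for vehicle growth plate, 2612 for 1NMPP1 DRG and 3675 for vehicle DRG. After filters 10535, 8663, 2155 and 2852 cells were kept, with median depths of 7047, 6501, 6995 and 10436.5 unique molecular identifiers (UMIs, each a counted transcript molecule). Libraries shared between 4 and 40 barcodes pairwise. The sex called from sex-linked transcripts differed between libraries, with 24.8% of cells male-called in 1NMPP1 growth plate and 49.7% in vehicle growth plate, and 17.3% in 1NMPP1 DRG and 45.5% in vehicle DRG. Treatment, library and the mix of animals cannot be told apart with 1 library per group. No test across samples can therefore be made, and every interval covers counting error only.

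Levels are given as CPM, the UMIs of a gene over all UMIs of a cell class, scaled to 1000000. CPM is not corrected for transcript length, so values are compared between classes and libraries and not between genes. A log2 ratio sets 1NMPP1 over vehicle with 0.5 UMI added to each sum. It was read where a class had at least 30 cells in both libraries and the gene at least 20 UMIs over both. A log2 ratio of at least 1 or at most -1 is called 2-fold here. Cell classes were rebuilt by clustering without any chemokine ligand gene and named from marker genes, so each is called X-like. Neutrophil-like, macrophage-like, satellite glia-like and endothelial-like cells had every marker of their lists detected in both libraries.

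Neutrophil-like cells held 54.3% of the growth plate UMIs of the 10 genes in the 1NMPP1 library and 53.8% in the vehicle library. Monocyte-like cells held 26.8% and 21.7%, and basophil and mast-like cells 9.5% and 12.1%. In the ganglia the same transcripts were spread over more classes. Satellite glia-like cells, which wrap the cell bodies of sensory neurons, held 13.5% in 1NMPP1 DRG and 30.97% in vehicle DRG. Neutrophil-like cells held 20.9% and 16.6%, macrophage-like cells 19.2% and 17.2%, and monocyte-like cells 15.5% and 10.9%. Such shares move with how many cells of a class a library holds.

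**Figure D1:**
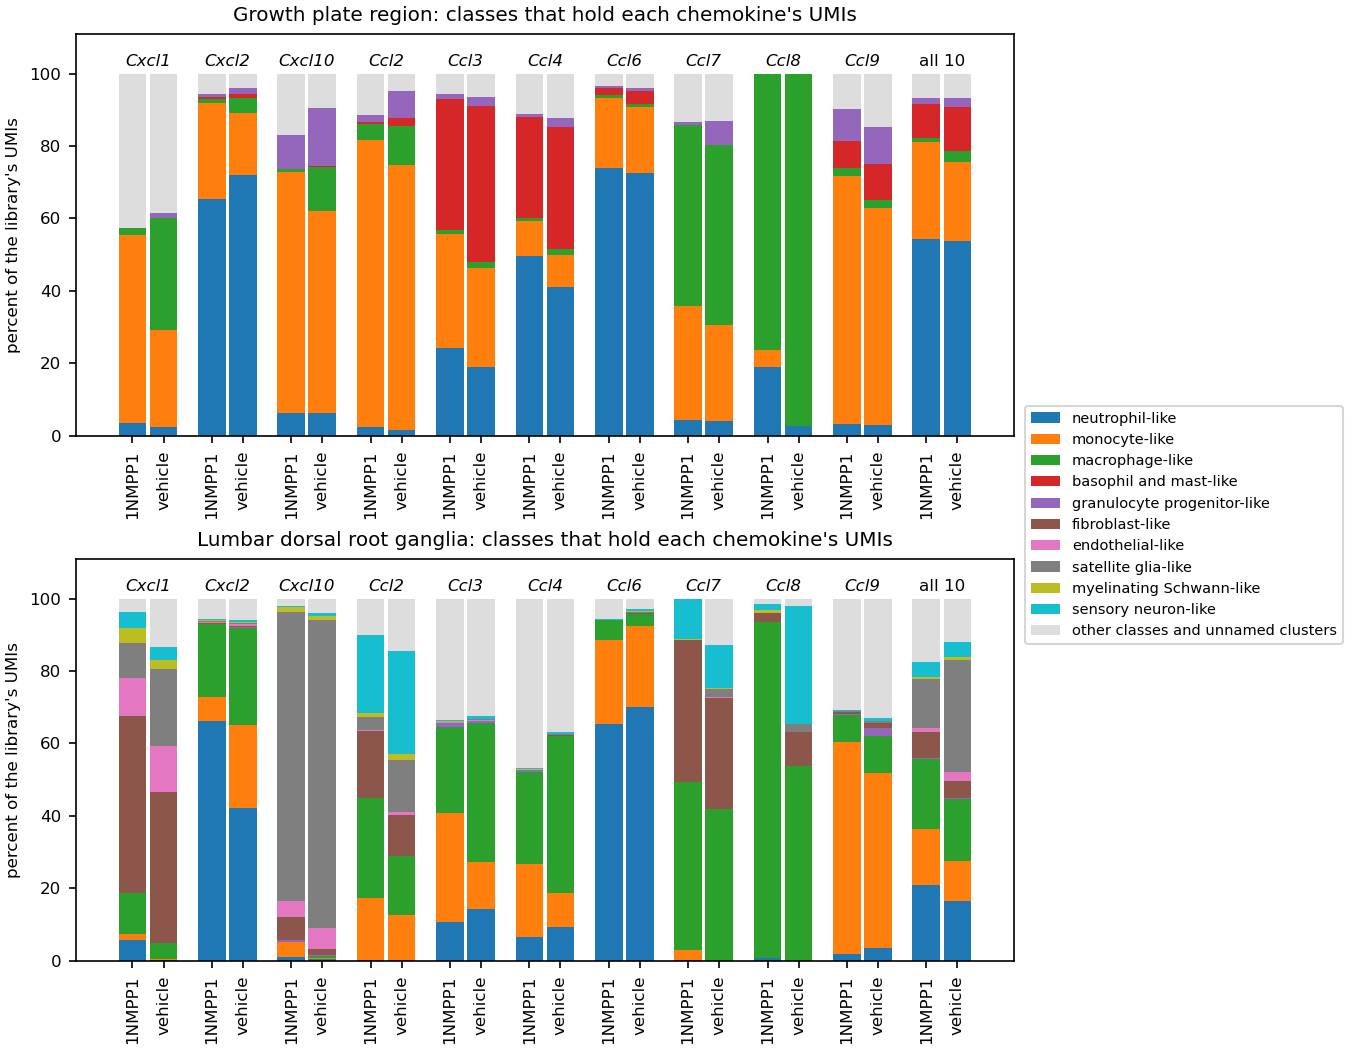
Share of each library's UMIs of a chemokine held by each cell class, in percent, for the 10 genes and their sum, with 1NMPP1 left of vehicle. Blue neutrophil-like cells fill most of the growth plate bars of Cxcl2 and Ccl6, red basophil and mast-like cells much of Ccl3 and Ccl4, and grey satellite glia-like cells 79.8% and 85.1% of the DRG Cxcl10 bars.

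**Figure D2:**
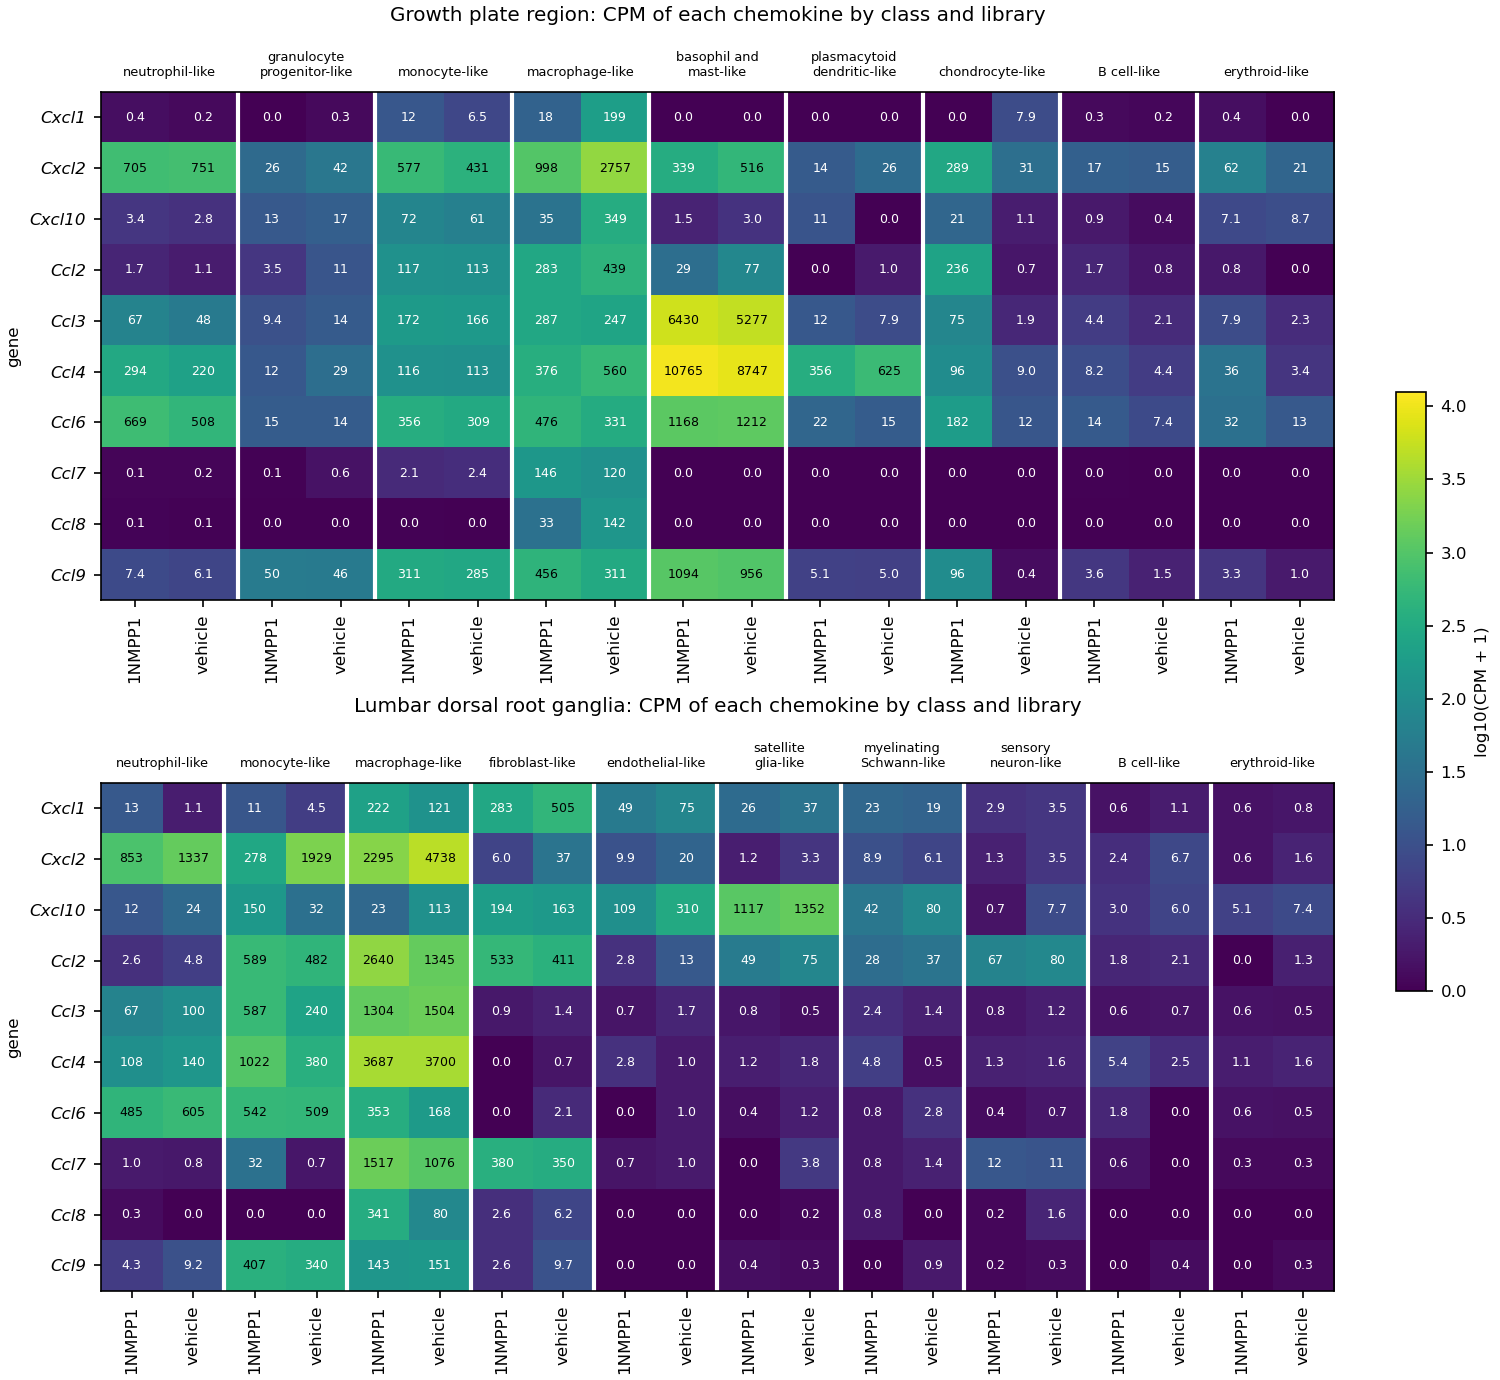
CPM of the 10 chemokines (rows) in each class and library (columns, 1NMPP1 left of vehicle), coloured on a log10(CPM + 1) scale with the CPM printed in each box. B cell-like and erythroid-like columns show the level in classes taken here as background from free RNA.

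Among growth plate classes, Cxcl2 was carried by macrophage-like, neutrophil-like, monocyte-like, and basophil and mast-like cells, and by a few conventional dendritic-like cells. Macrophage-like cells had 998 CPM with 1NMPP1 and 2757 CPM with vehicle, neutrophil-like cells 705 and 751 CPM, and monocyte-like cells 577 and 431 CPM. Basophil and mast-like cells had 339 and 516 CPM, a log2 ratio of -0.60 (-0.86 to -0.36). The 37 conventional dendritic-like cells with 1NMPP1 had 1596 CPM, with 521 of 946 UMIs in 1 cell, and the 18 with vehicle had 47.2 CPM. In B cell-like cells, taken as background, Cxcl2 stood at 17.2 CPM with 1NMPP1 and 15.035 CPM with vehicle. A Cxcl2 UMI was found in 46.2% of neutrophil-like cells with 1NMPP1 and 43.1% with vehicle, against 13.8% and 11.0% of B cell-like cells, whose median depths were 6765 and 5565 UMIs. The background itself was not equal between libraries. In B cell-like cells 4 of 7 genes read were 2-fold higher with 1NMPP1, beside 1.73% of all genes, and none was 2-fold lower, beside 1.29%, with log2 ratios of 1.01 for Ccl3, 0.88 for Ccl4 and 0.87 for Ccl6. In erythroid-like cells 4 of 5 were 2-fold higher, beside 2.37%, and none 2-fold lower, beside 5.32%, with Cxcl2 at 62.2 CPM with 1NMPP1 and 21.1 CPM with vehicle and Ccl4 at 35.9 and 3.35 CPM. The part of such background in the ratios of other classes was not tested. Cxcl1, a close relative of Cxcl2, was barely detected in neutrophil-like cells, at 0.400 CPM with 1NMPP1 and 0.250 CPM with vehicle. The neighbouring genes had unlike patterns over classes, and their correlation over 48 class and library points was 0.13.

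Neutrophil-like clusters of the growth plate differed among themselves far more than the libraries did. In the cluster led by Ngp, Ltf and Camp, genes of the secondary granules of immature neutrophils, Cxcl2 was at 20.1 CPM with 1NMPP1 and 27.3 CPM with vehicle, and Ccl6 at 19.0 and 10.0 CPM. In the cluster led by Slc7a11, Il1b and Acod1, with 1122 cells of the 1NMPP1 and 799 of the vehicle library, Cxcl2 was at 4216 and 5454 CPM and Ccl6 at 2347 and 1965 CPM. Ccl4 was at 1689 CPM with 1NMPP1 and 1543 CPM with vehicle in that cluster, and Ccl3 at 427 and 375 CPM. All 4 genes were higher in that cluster than in the one led by Ngp, Ltf and Camp, in both libraries.

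**Figure D3:**
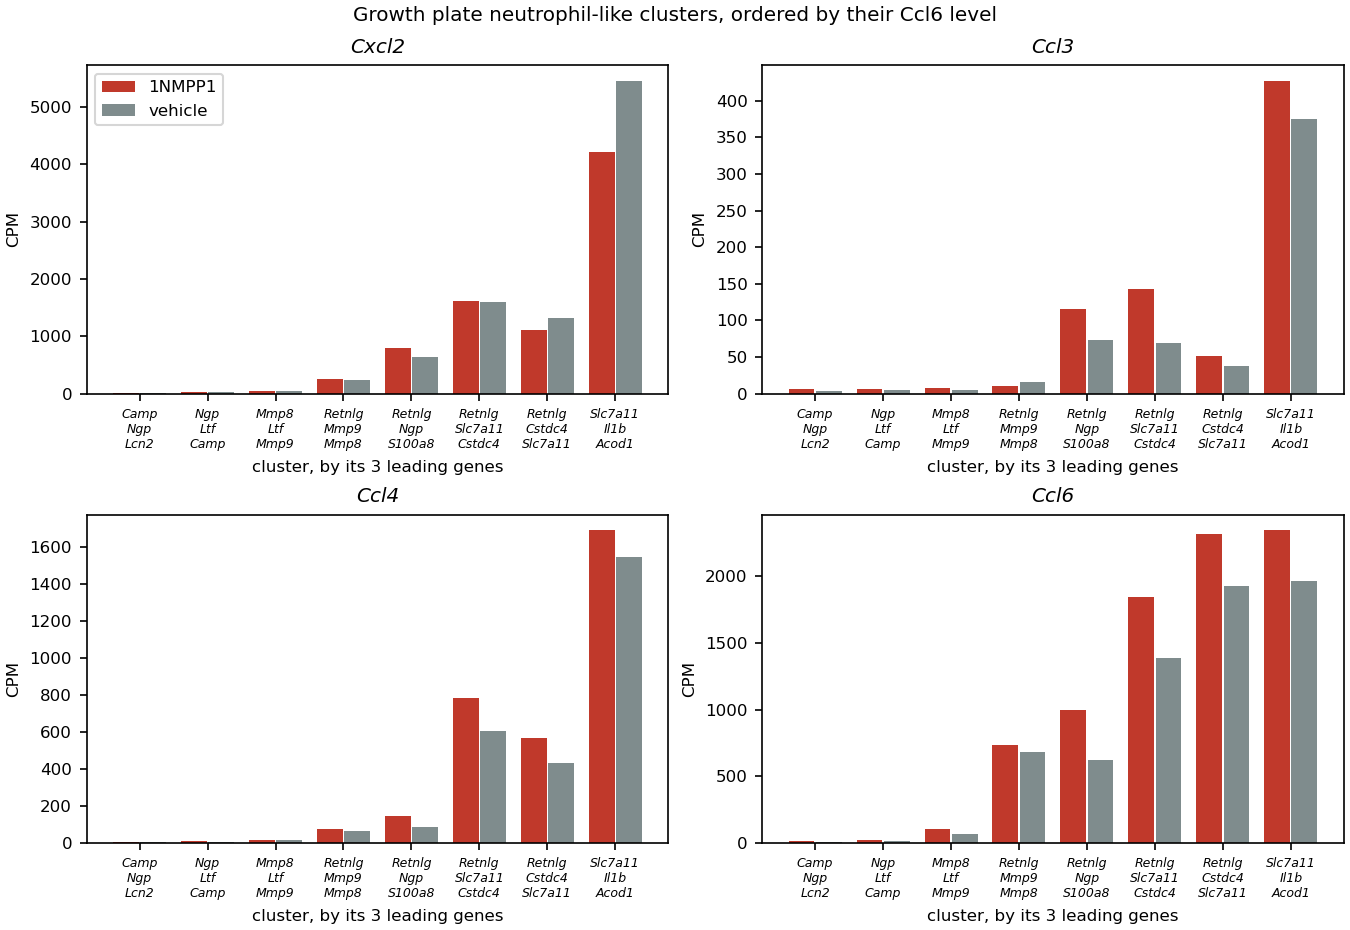
CPM of Cxcl2, Ccl3, Ccl4 and Ccl6 in the neutrophil-like clusters of the growth plate, each named by its 3 leading genes and ordered by Ccl6 level, with 1NMPP1 bars left of vehicle bars. Clusters led by granule genes such as Ngp, Ltf and Camp lie near 0 on each linear axis, and the cluster led by Slc7a11, Il1b and Acod1 has the highest bar of each gene.

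Between treatments, growth plate neutrophil-like cells showed small differences. With 5641 cells of the 1NMPP1 and 4399 of the vehicle library, none of the 8 genes read was 2-fold apart, where 2.16% of all 13349 genes were 2-fold higher and 0.981% 2-fold lower. Ccl6 stood at 669 CPM with 1NMPP1 and 508 CPM with vehicle, a log2 ratio of 0.40 (95% counting interval 0.37 to 0.43). Ccl4 had 294 and 220 CPM and a log2 ratio of 0.42 (0.38 to 0.46), and Ccl3 66.6 and 47.9 CPM and 0.48 (0.39 to 0.57). Cxcl2, at -0.09, was slightly lower with 1NMPP1. The median of the 8 genes was 0.41, beside 0.04 over all genes read in the class. The libraries also differed in the mix of neutrophil-like clusters. The cluster led by Retnlg, Slc7a11 and Cstdc4 had 445 cells of the 1NMPP1 and 169 of the vehicle library. The part of this mix in the class ratios was not tested.

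Growth plate monocyte-like cells, 1122 with 1NMPP1 and 834 with vehicle, held a broad set, with 9 of the 10 genes read. None was 2-fold apart, beside 1.66% of all genes higher and 1.31% lower. Ccl9 was found in 86.8% of 1NMPP1 and 81.8% of vehicle cells, at 311 and 285 CPM. Ccl6 was at 356 CPM with 1NMPP1 and 309 CPM with vehicle, and Cxcl2 at 577 and 431 CPM, a log2 ratio of 0.42. Ccl2 differed little, with 117 and 113 CPM, as did Ccl3 with 172 and 166 CPM. The largest log2 ratio among the genes read was that of Cxcl1, 0.84 (0.49 to 1.22), from 11.8 CPM with 1NMPP1 and 6.53 CPM with vehicle in 46 and 15 cells. Ccr2, the receptor of Ccl2 and Ccl7, was at 748 CPM with 1NMPP1 and 823 CPM with vehicle.

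Basophil and mast-like cells were few, 63 with 1NMPP1 and 68 with vehicle, yet carried very high Ccl3 and Ccl4. Ccl3 stood at 6430 CPM with 1NMPP1 and 5277 CPM with vehicle, and a UMI was present in 100% and 91.2% of cells. Ccl4 stood at 10765 and 8747 CPM. These cells made up 0.598% of kept 1NMPP1 cells and 0.785% of vehicle cells and held 36.3% (35.4 to 37.2) and 43.1% (42.0 to 44.2) of the Ccl3 UMIs. Of the Ccl4 UMIs they held 28.0% and 33.7%. Ccl6 and Ccl9 were also high, at 1168 and 1094 CPM with 1NMPP1 and at 1212 and 956 CPM with vehicle, while no UMI of Cxcl1, Ccl7 or Ccl8 was seen. Of 6 genes read, Ccl2 alone was 2-fold lower with 1NMPP1, beside 4.41% of all genes, and none was 2-fold higher, beside 2.69%. Ccl2 had 29.0 and 77.4 CPM, coming from 3 cells in each library. Its ratio was -1.39 in all cells and 1.42 in male-called cells alone. The cytokine Il6 was at 2244 CPM with 1NMPP1 and 1839 CPM with vehicle in this class.

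Granulocyte progenitor-like cells, 503 with 1NMPP1 and 504 with vehicle, carried less Cxcl2, Ccl3, Ccl4 and Ccl6 than neutrophil-like cells, and more Ccl9, Cxcl10 and Ccl2. Cxcl10 was at 12.8 CPM with 1NMPP1 and 16.6 CPM with vehicle, a log2 ratio of -0.38, against 3.44 and 2.78 CPM in neutrophil-like cells. Ccl9 was at 49.6 CPM with 1NMPP1 and 46.3 CPM with vehicle, with a UMI in 37.4% and 38.9% of cells. Of 7 genes read, 2 were 2-fold lower with 1NMPP1, beside 1.44% of all genes, and none was 2-fold higher, beside 1.47%. Cxcl2 had 25.6 CPM with 1NMPP1 and 41.8 CPM with vehicle, a log2 ratio of -0.71. Ccl4 had 12.5 and 29.2 CPM, although a UMI was present in 19.5% of 1NMPP1 and 12.7% of vehicle cells, and 148 of the 405 vehicle UMIs lay in 1 cell. Its log2 ratio was -1.22 in all cells and 0.58 in female-called cells. Ccl2 had 3.52 and 10.9 CPM and a log2 ratio of -1.62 (-2.09 to -1.18), which was -0.62 in the largest cluster and -0.03 after thinning each cell to 1000 UMIs.

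Growth plate macrophage-like cells, marked by the complement genes C1qa, C1qb and C1qc, showed wide gaps between treatments. All 10 genes could be read, and 4 were 2-fold lower with 1NMPP1, beside 5.26% of all genes, while none was 2-fold higher, beside 4.66%. Cxcl1 had 18.5 CPM (8.45 to 35.1) with 1NMPP1 and 199 CPM (162 to 242) with vehicle, from 9 and 100 UMIs, a log2 ratio of -3.36. Cxcl10 had 34.9 and 349 CPM, from 17 and 175 UMIs, a log2 ratio of -3.28 (-4.13 to -2.60). Most cells held neither gene. No Cxcl1 UMI was found in 43 of 46 cells with 1NMPP1 and 24 of 33 with vehicle. No Cxcl10 UMI was found in 39 and 22 of them. Cxcl2, with 998 and 2757 CPM, had a log2 ratio of -1.47 (-1.62 to -1.32). Ccl8 had 32.9 CPM in 4 of 46 cells with 1NMPP1 and 142 CPM in 11 of 33 cells with vehicle, a log2 ratio of -2.07.

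The other macrophage-like chemokines did not share that direction to the same size. Ccl9 had 456 CPM with 1NMPP1 and 311 CPM with vehicle, in 52.2% and 24.2% of cells, and Ccl6 had 476 and 331 CPM. Ccl3 and Ccl7 had log2 ratios of 0.22 and 0.28, while Ccl2 at -0.63 and Ccl4 at -0.57 were lower with 1NMPP1. A cell held a median of 2 of the 10 genes with 1NMPP1 and 4 with vehicle. The class rested on 46 cells with a median of 8400 UMIs with 1NMPP1 and 33 cells with 14714 UMIs with vehicle. All 9 neutrophil markers were detected in it, at a summed 4023 CPM with 1NMPP1 and 13999 CPM with vehicle, and their part in these ratios was not tested.

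The larger cluster of this class, with 32 and 25 cells, gave -3.34 for Cxcl1, -3.26 for Cxcl10, -1.44 for Cxcl2 and -2.03 for Ccl8. Over the alternatives run, the log2 ratio of Cxcl1 in growth plate macrophage-like cells lay between -6.14 and -1.58, that of Cxcl10 between -4.05 and -1.89 and that of Ccl8 between -3.07 and -2.005. Cxcl2 lay between -2.73 and -0.90. Sex-called cells alone were not among these alternatives, since such a split needed at least 10 cells in both libraries. The class had 6 male-called and 19 female-called cells with 1NMPP1, and 13 and 5 with vehicle. Of the 9 inducers and feedback genes read, the interleukin gene Il1a alone was 2-fold lower with 1NMPP1, beside 5.26% of all genes. None was 2-fold higher, beside 4.66%. The NF-kappaB inhibitor Nfkbia had 561 CPM with 1NMPP1 and 1074 CPM with vehicle. Of the 5 chemokine receptors read, Ccr2 alone was 2-fold higher and none was 2-fold lower. Of the 5 other chemokine ligands read, 1 was 2-fold higher and 2 were 2-fold lower, and the genes were Cxcl3, Ccl5 and Ccl12.

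**Figure D4:**
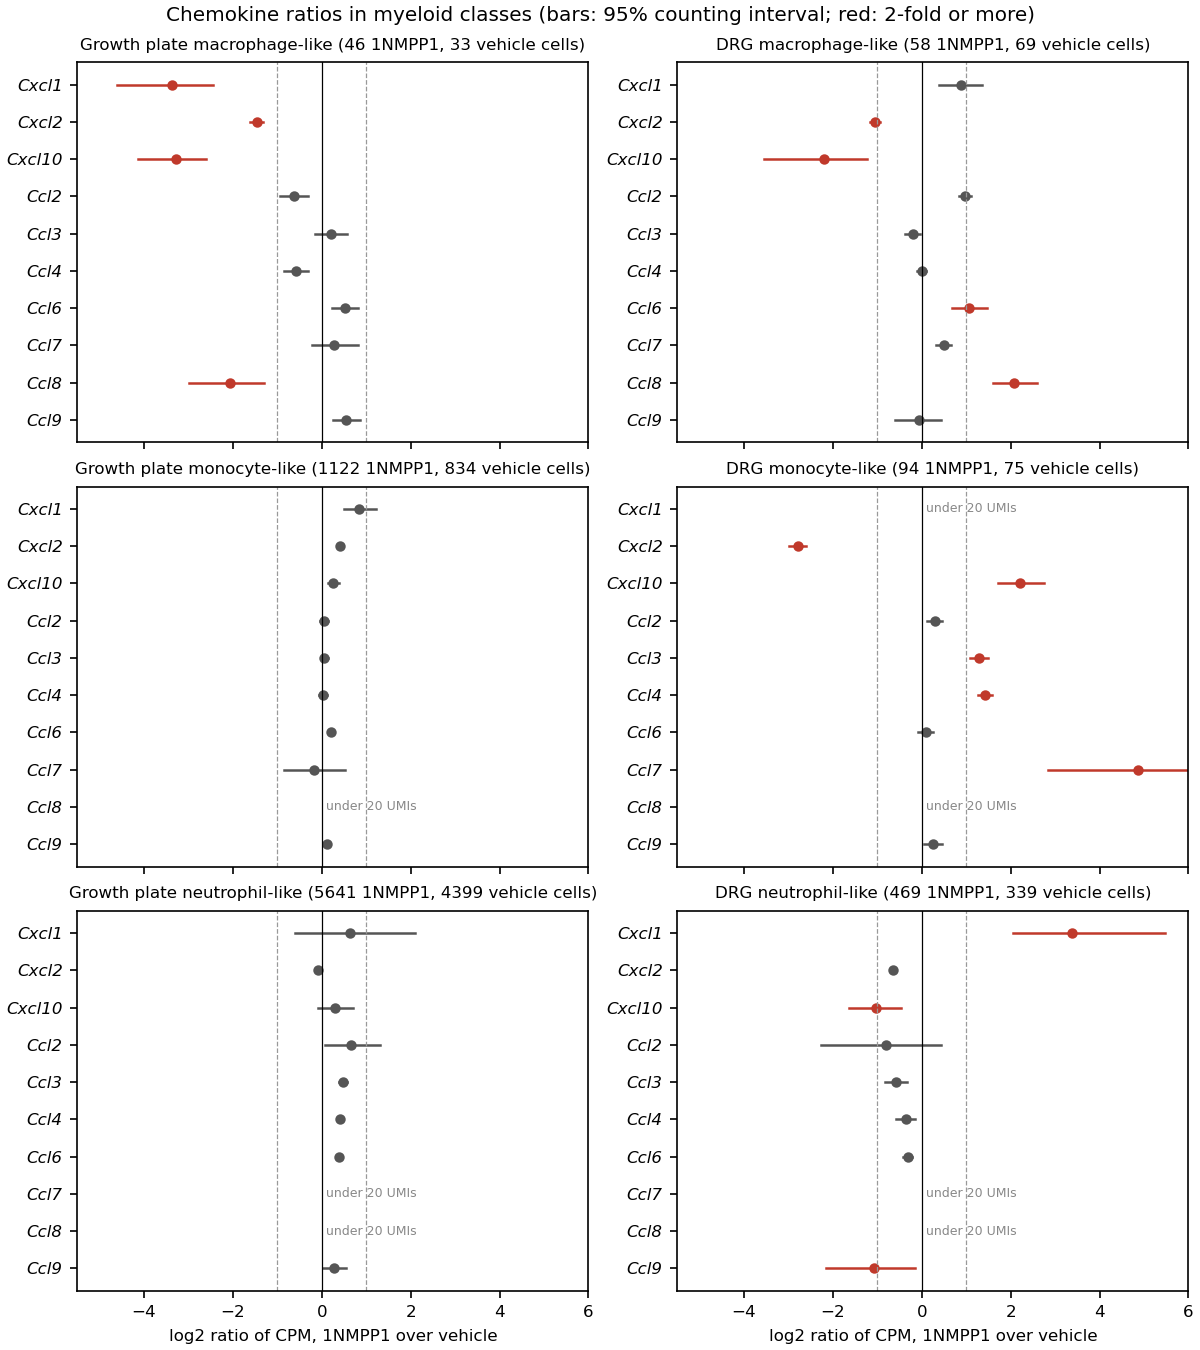
Log2 ratio of CPM, 1NMPP1 over vehicle, of each chemokine in the macrophage-like, monocyte-like and neutrophil-like cells of both tissues, with bars for the 95% counting interval, dashed lines at 2-fold and red points for 2-fold or more. Growth plate neutrophil-like and monocyte-like points lie inside the dashed lines, while Cxcl2 and Cxcl10 lie left of them in both macrophage-like panels and Ccl8 lies on opposite sides.

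DRG macrophage-like cells, 58 with 1NMPP1 and 69 with vehicle, carried all 10 genes. Of 10 genes read, 2 were 2-fold higher with 1NMPP1, beside 6.42% of all genes, and 2 were 2-fold lower, beside 5.96%. Cxcl2 had 2295 CPM with 1NMPP1 and 4738 CPM with vehicle, a log2 ratio of -1.04 (-1.16 to -0.93), with a UMI in 69.0% and 71.0% of cells. Cxcl10 had 23.3 and 113 CPM, from 8 and 72 UMIs, and a log2 ratio of -2.20 (-3.54 to -1.22). No Cxcl10 UMI was found in 55 of 58 cells with 1NMPP1 and 58 of 69 with vehicle. Neutrophil markers summed to 382 CPM with 1NMPP1 and 403 CPM with vehicle here, while erythroid markers summed to 149 and 7959 CPM. The part of the erythroid transcripts in these ratios was not tested.

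In DRG macrophage-like cells, the Ccr2 ligands Ccl2, Ccl7 and Ccl12 had ratios above 0, and of these Ccl12 alone was past the 2-fold limit. Ccl2 had 2640 CPM with 1NMPP1 and 1345 CPM with vehicle, a log2 ratio of 0.97 (0.84 to 1.11), just inside the 2-fold limit and 1.87 in female-called cells, and Ccl7 had 1517 and 1076 CPM, a ratio of 0.50. Ccl12, a further Ccr2 ligand that was not among the 10, stood at 1412 and 629 CPM, a log2 ratio of 1.17. Of the 6 other chemokine ligands read, 2 were 2-fold higher, beside 6.42% of all genes, and 1 was 2-fold lower, beside 5.96%. The genes were Ccl12, Cxcl3 and Ccl5. Ccl8 had 341 and 80.2 CPM and a log2 ratio of 2.08 (1.60 to 2.59), but from 6 of 58 and 7 of 69 cells. A single 1NMPP1 cell held 85 of the 117 Ccl8 UMIs, and without the top cell of each library the ratio was 1.23. Ccl6 had 353 and 168 CPM, a ratio of 1.07 that was 0.19 without the top cells.

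In the same cells Ccl4 had 3687 CPM with 1NMPP1 and 3700 CPM with vehicle, and Ccl3 1304 and 1504 CPM, a log2 ratio of -0.20 (-0.37 to -0.04). Of the 9 inducers and feedback genes read, 3 were 2-fold higher with 1NMPP1 and none 2-fold lower, with a median of 0.77 beside 0.05 over all genes. These were Il1b at 1.08, the NF-kappaB cofactor Nfkbiz at 1.32 and the interferon response factor Irf1 at 1.24. The median depth of the class was 6088.5 UMIs with 1NMPP1 and 9193 UMIs with vehicle. With every DRG macrophage-like cell thinned to 1000 UMIs the log2 ratio was -1.03 for Cxcl2 and 0.65 for Ccl2.

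DRG monocyte-like cells, 94 with 1NMPP1 and 75 with vehicle, had 8 genes read. With 1NMPP1, 4 were 2-fold higher, beside 3.87% of all genes, and 1 was 2-fold lower, beside 3.81%. Ccl4 had 1022 CPM with 1NMPP1 and 380 CPM with vehicle, a log2 ratio of 1.43 (1.27 to 1.59), and Ccl3 had 587 and 240 CPM, a ratio of 1.29 (1.09 to 1.49). The Ccl4 ratio was 0.46 with at least 500 genes per cell and 0.61 in female-called cells. The share of cells with a UMI differed little, 42.6% and 42.7% for Ccl4 and 59.6% and 58.7% for Ccl3. Ccl2 had 589 and 482 CPM, and Ccl6 and Ccl9 had log2 ratios of 0.09 and 0.26. Of the 10 inducers and feedback genes read in this class, none was 2-fold higher with 1NMPP1 and 3 were 2-fold lower. Their median was -0.66, beside 0.07 over all genes, on the other side of 0 from that of DRG macrophage-like cells. The vehicle class held a cluster of 12 cells that had no 1NMPP1 cells, with Il1b among its leading genes. The part of that cluster in this median was not tested.

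The remaining large ratios of DRG monocyte-like cells came from few cells. Cxcl10 had 150 CPM with 1NMPP1 and 32.1 CPM with vehicle, but 128 of the 144 UMIs with 1NMPP1 lay in 1 cell, and without the top cells the log2 ratio was -0.63 in place of 2.21. Ccl7 had 31 UMIs in 3 cells with 1NMPP1 and 1 UMI with vehicle. Cxcl2 had 278 and 1929 CPM, a log2 ratio of -2.79, and 2197 of its 2583 vehicle UMIs lay in a cluster of 12 cells, all from the vehicle library, with Lyz2, Il1b and Cd14 among its leading genes. Within the class's largest cluster the ratio was -0.27, with at least 500 genes per cell it was -0.20, and with no doublets removed it was 0.02. Neutrophil markers summed to 2485 CPM with 1NMPP1 and 9659 CPM with vehicle in this class, and their part was not tested.

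DRG neutrophil-like cells, 469 with 1NMPP1 and 339 with vehicle, had Cxcl2 at 853 and 1337 CPM, a log2 ratio of -0.65 (-0.72 to -0.58). Ccl6 had 485 CPM with 1NMPP1 and 605 CPM with vehicle, Ccl4 108 and 140 CPM, and Ccl3 67.3 and 100 CPM. Of 8 genes read, 1 was 2-fold higher with 1NMPP1, beside 4.36% of all genes, and 2 were 2-fold lower, beside 2.41%. Cxcl1 had 39 UMIs in 7 of 469 cells and 4 UMIs in 4 of 339 cells, a log2 ratio of 3.37 (2.05 to 5.47). Cxcl10 at -1.02 and Ccl9 at -1.07 lay close to the limit, Cxcl10 was at -0.02 in the largest cluster and Ccl9 at 0.01 without the top cells. The signs of Ccl3, Ccl4 and Ccl6 were thus opposite in the neutrophil-like cells of ganglia and growth plate, a difference that was not tested.

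Most Cxcl10 of the ganglia lay in satellite glia-like cells. These cells held 79.8% (Clopper-Pearson interval 78.4 to 81.1) of the Cxcl10 UMIs of 1NMPP1 DRG and 85.1% (84.5 to 85.6) of those of vehicle DRG. Over 188 and 599 cells, the level was 1117 CPM (1076 to 1159) with 1NMPP1 and 1352 CPM (1330 to 1375) with vehicle, a log2 ratio of -0.28 (-0.33 to -0.22). In B cell-like cells it was 2.998 and 5.95 CPM, and in erythroid-like cells 5.11 and 7.39 CPM. At least 1 UMI was found in 54.3% (46.8 to 61.5) of satellite glia-like cells with 1NMPP1 and 71.1% (67.3 to 74.7) with vehicle, against 1.02% and 5.67% of B cell-like cells. After thinning each cell to 1000 UMIs the satellite glia-like shares were 36.0% and 40.9%. B cell-like cells had median depths of 4413.5 and 6282.5 UMIs.

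Satellite glia-like cells were unequal in Cxcl10. Cells with at least 16 UMIs made up 28.7% with 1NMPP1 and 33.2% with vehicle, and the top 10% of cells held 53.3% and 53.5% of the Cxcl10 UMIs. The main cluster, led by Fabp7 and Apoe, had 1145 CPM with 1NMPP1 and 1457 CPM with vehicle. Cxcl10 overlaps the gene Art3 on the other strand, whose UMIs amounted to 29.6% and 24.8% of those of Cxcl10 in these cells. The strand setting of the counting is not given in the sources used, so the split between these genes is uncertain. The same holds for Ccl2 and Ccl6, which overlap Gm17268 and E230016K23Rik on the other strand. In growth plate monocyte-like cells, Gm17268 UMIs amounted to 12.8% of those of Ccl2 with 1NMPP1 and 9.59% with vehicle. E230016K23Rik UMIs amounted to 1.44% and 2.02% of those of Ccl6 there.

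**Figure D5:**
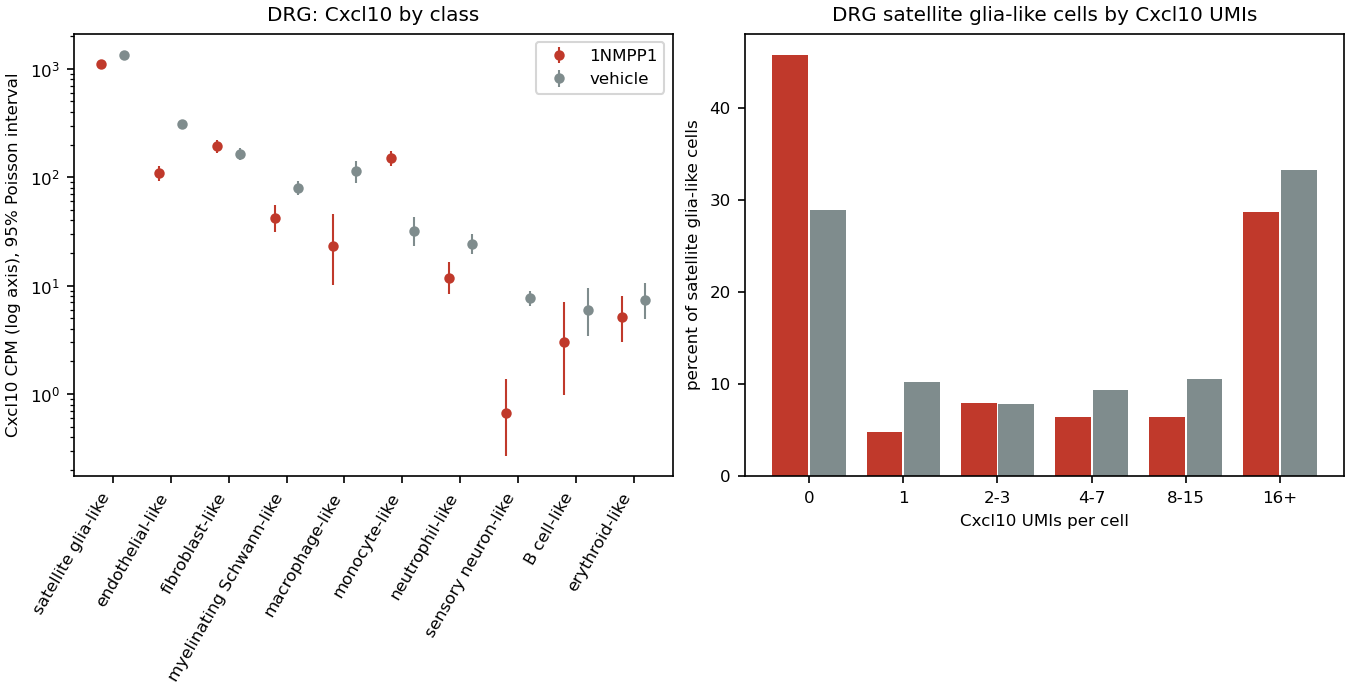
Left, Cxcl10 CPM on a log axis with 95% Poisson intervals in each DRG class, 1NMPP1 in red left of vehicle in grey. Right, percent of satellite glia-like cells in bins of Cxcl10 UMIs per cell, with 28.7% of 1NMPP1 and 33.2% of vehicle cells at 16 or more.

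The other genes read in satellite glia-like cells had ratios below 0. Ccl2 had 49.0 CPM with 1NMPP1 and 74.9 CPM with vehicle, a log2 ratio of -0.61 (-0.90 to -0.34), and Cxcl1 had 26.1 and 36.8 CPM. Ccl7 had 0 UMIs with 1NMPP1 and 38 UMIs with vehicle, and the counting interval of its log2 ratio had an upper end of -1.30. With 3 UMIs set as the floor of the 1NMPP1 library, the vehicle level was 3.18-fold that floor. Cxcl2 had 3 and 33 UMIs, a log2 ratio of -1.26 with an interval of -3.81 to 0.21. Its 1.19 CPM with 1NMPP1 and 3.28 CPM with vehicle lay below the 2.40 and 6.65 CPM of B cell-like cells. Their Cxcl2 log2 ratio was -1.34, from 4 and 19 UMIs, and the part of such background was not tested. Ccl7 and Cxcl2 were the 2 of 6 genes read in satellite glia-like cells that were 2-fold lower, beside 5.31% of all genes. None was 2-fold higher, beside 7.81%. The median of the 6 was -0.55, beside 0.15 over all genes. In the same cells Irf1 had 1108 CPM with 1NMPP1 and 367 CPM with vehicle, and the mRNA decay factor Zfp36 785 and 257 CPM. They were the 2 of 8 inducers and feedback genes read that were 2-fold higher, beside 7.81% of all genes. Il6 alone was 2-fold lower, beside 5.31%. The chemokine receptor Cxcr4 had 143 and 46.2 CPM, the 1 of 2 receptors read that was 2-fold higher. Neutrophil markers summed to 1213 CPM with 1NMPP1 and 262 CPM with vehicle, and their part was not tested.

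DRG endothelial-like cells also had Cxcl10, with a wider gap. Over 119 cells with 1NMPP1 and 133 with vehicle it had 109 CPM (92.1 to 127) and 310 CPM (290 to 330), in 23.5% and 56.4% of cells, a log2 ratio of -1.51 (-1.77 to -1.26). Median depths were 8823 UMIs with 1NMPP1 and 18773 UMIs with vehicle, and after thinning to 1000 UMIs the shares were 2.59% and 18.2%. Erythroid markers summed to 1376 CPM with 1NMPP1 and 73.5 CPM with vehicle, and macrophage markers to 118 and 39.9 CPM, and their part was not tested. The ratio was 2-fold or more in all 13 alternatives run. The libraries drew on different clusters, so each was read alone. One had 125 CPM in 25 cells with 1NMPP1 and 295 CPM in 94 cells with vehicle, and the other had 120 CPM in 69 cells and 402 CPM in 25 cells. Ccl2 was 2-fold lower too, at -2.02 with 4 and 38 UMIs, and at -0.18 in male-called cells. These were 2 of 4 genes read, beside 4.33% of all genes, and none was 2-fold higher, beside 9.24%. The median of all genes was 0.22 here, and on a scale that sets it to 0 Cxcl10 was at -1.72. Cxcl1 had 48.7 and 75.1 CPM. Irf1 was at 1197 CPM with 1NMPP1 and 450 CPM with vehicle, and Nfkbia at 1443 and 2806 CPM. Of the 7 inducers and feedback genes read, Irf1 alone was 2-fold higher, beside 9.24% of all genes. Il6 alone was 2-fold lower, beside 4.33%.

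Fibroblast-like cells of the ganglia, 110 with 1NMPP1 and 108 with vehicle, were the main holders of Cxcl1, with 48.9% of its UMIs in 1NMPP1 DRG and 41.6% in vehicle DRG. Cxcl1 had 283 and 505 CPM, a log2 ratio of -0.83 (-1.03 to -0.64), in 42.7% and 61.1% of cells. The Cxcl1 ratio was -2.41 in male-called cells, -0.0043 in female-called cells and -0.17 in the largest cluster. Ccl2 had 533 CPM with 1NMPP1 and 411 CPM with vehicle and Ccl7 380 and 350 CPM, while Cxcl10 had 194 and 163 CPM. Cxcl2 was at 6.05 and 37.4 CPM, from 7 and 54 UMIs, the single 2-fold lower gene of 5 read, beside 4.05% of all genes. None was 2-fold higher, beside 5.24%.

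Ccl2 and Ccl7 were uneven among fibroblast-like clusters. In the cluster led by Apod and Dcn, 53 cells with 1NMPP1 and 61 with vehicle, Ccl2 had 1196 and 669 CPM, and Ccl7 had 798 and 518 CPM. In another cluster of 42 and 17 cells, Ccl2 had 8.39 CPM with 1NMPP1 and 85.1 CPM with vehicle, and Ccl7 16.8 and 46.8 CPM. The eosinophil attractant Ccl11 was at 1031 CPM with 1NMPP1 and 961 CPM with vehicle. Cxcl12, the ligand of Cxcr4, had 83.0 and 727 CPM, a log2 ratio of -3.12. Erythroid markers of fibroblast-like cells summed to 774 CPM with 1NMPP1 and 89.3 CPM with vehicle, and their part was not tested.

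Myelinating Schwann-like cells, 256 with 1NMPP1 and 293 with vehicle, had low levels of Cxcl10, 41.9 CPM with 1NMPP1 and 79.5 CPM with vehicle. The opposite-strand gene Art3 had 801 and 1292 UMIs in them, against 52 and 169 of Cxcl10, so the Cxcl10 value of this class is uncertain. Its log2 ratio was -0.92 in all cells, -2.49 in male-called and 1.09 in female-called cells. None of the 4 genes read was 2-fold apart, beside 5.60% of all genes higher and 2.62% lower. Sensory neuron-like cells held Ccl2 at 67.3 CPM with 1NMPP1 and 79.7 CPM with vehicle and Ccl7 at 11.8 and 10.5 CPM. Most of their Ccl2 lay in a cluster with the peptide genes Calca and Tac1 among its leading genes, at 147 and 154 CPM. Of 8 genes read in sensory neuron-like cells, 3 were 2-fold lower with 1NMPP1, beside 5.46% of all genes, and none was 2-fold higher, beside 4.76%. Cxcl10 had 7 UMIs with 1NMPP1 and 144 with vehicle, 0.668 and 7.66 CPM, a log2 ratio of -3.42 (-4.86 to -2.44). Ccl8 had 2 and 31 UMIs and a ratio of -2.81, and Cxcl2 had 14 and 65 UMIs and a ratio of -1.33. Neutrophil markers summed to 99.9 CPM with 1NMPP1 and 219 CPM with vehicle there, and their part was not tested. The ratios of all 3 genes stayed 2-fold or more in the alternatives run for them. The vehicle level of Cxcl10 was close to that of B cell-like and erythroid-like cells. Cxcl2 in sensory neuron-like cells, at 1.34 CPM with 1NMPP1 and 3.46 CPM with vehicle, lay below the B cell-like level of 2.40 and 6.65 CPM. The B cell-like Cxcl2 log2 ratio was -1.34, and the part of such background was not tested. The median depth of sensory neuron-like cells was 16894 UMIs with 1NMPP1 and 1227 UMIs with vehicle.

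Chondrocyte-like cells of the growth plate could not be compared on an equal footing. The 36 cells with 1NMPP1 had a median of 769.5 UMIs and the 127 with vehicle 9690 UMIs, and neutrophil markers summed to 44648 and 12108 CPM. Of 5 genes read in them 4 were 2-fold higher with 1NMPP1, beside 24.9% of all genes, and none 2-fold lower, beside 17.7%. Cxcl2 stood at 289 CPM with 1NMPP1 and 30.7 CPM with vehicle, and its log2 ratio of 3.26 was -0.14 when no doublets were removed.

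Counted over 5 growth plate classes (neutrophil-like, granulocyte progenitor-like, monocyte-like, macrophage-like, and basophil and mast-like), 0 of 40 gene and class pairs were 2-fold higher with 1NMPP1 and 7 were 2-fold lower, beside 2.25% and 2.15% of pairs of all genes. Over 7 DRG classes (neutrophil-like, monocyte-like, macrophage-like, fibroblast-like, endothelial-like, satellite glia-like and myelinating Schwann-like), 7 of 45 pairs were 2-fold higher and 10 were 2-fold lower, beside 6.22% and 4.04%. The growth plate count leaves out chondrocyte-like, B cell-like and erythroid-like cells, in each of which 4 genes were 2-fold higher. It also leaves out NK and innate lymphoid-like cells, in which 3 of 5 genes read (Cxcl2, Ccl6 and Ccl9) were 2-fold lower and none higher. Left out too are T cell-like cells, with 1 gene higher and 1 lower of 2 read. The DRG count leaves out sensory neuron-like cells, in which 3 genes were 2-fold lower, and B cell-like cells, in which 1 of 2 was. The lower pairs of the growth plate lay in macrophage-like, granulocyte progenitor-like and basophil and mast-like cells.

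Across the 48 class and library points, which share libraries and depth, pairs of the 10 genes differed in likeness. Ccl3 and Ccl4 had a Pearson correlation of log2(CPM + 1) of 0.92, Cxcl2 and Ccl6 0.90, and Ccl7 and Ccl8 0.85. Cxcl1 and Ccl4 were the least alike, at -0.20. Among all other genes, Ccl6 was most like the inflammasome gene Nlrp3 at 0.98, Cxcl2 most like Lilrb4a at 0.93 and Ccl8 most like Zmynd15 at 0.96. Cxcl10 had its closest match in Jag1 at 0.76, below the best match of each of those genes. The closest match of Ccl2 was Gm17268, which overlaps it on the other strand, at 0.90.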

How the data were processed

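Per the file headers the values are whole UMI counts of each gene in each barcode, and Cell Ranger 7.2.0 made them; the authors deposited them without normalization. Per the submitters' processing notes the genome was mm10. The chemistry of the kit, the annotation release and the allele's name are not reported here. Barcodes with under 200 genes or over 20% mitochondrial UMIs were left out. Doublets were removed by Scrublet score at 0.8% per 1000 barcodes. The libraries of each tissue were clustered jointly with scanpy 1.11.5 and leidenalg 0.10.2 under Python 3.11.15 (2000 variable genes without chemokine ligands, 30 components, 20 neighbours, resolution 1). Clusters were named from 25 marker sets by a rule settled after 3 adjustments made on seeing the clusters, so a difference from the study may come from rebuilt names. UMIs were summed per class and library, as CPM with exact Poisson intervals, shares with Clopper-Pearson intervals, and ratios with exact conditional intervals, all at 95%. The procedure was checked on simulated counts. All 10 genes are described. From lists of other ligands, receptors and inducers, a gene was named when it had at least 100 UMIs in a class and was 2-fold apart, or was among the 3 highest of its list. Likeness took the 3 highest correlations, of which the first is given. Il1a, and Ccr2 in growth plate macrophage-like cells, were named after their values were seen. The genes, lists and comparisons were chosen with earlier results of these data known. Alternatives changed the filters, doublet removal, resolution, variable genes, sex, weighting, thinning, added UMI, scaling and minimum count. No test across samples was possible.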

Additional observations from a re-analysis of the deposited data

Results flagged for a closer look

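Ccl8 in macrophage-like cells lay on opposite sides in the 2 tissues. Its log2 ratio, 1NMPP1 over vehicle, was -2.07 (95% counting interval -2.99 to -1.31) in the growth plate and 2.08 (1.60 to 2.59) in the ganglia. The growth plate value came from 16 UMIs in 4 of 46 cells with 1NMPP1 and 71 UMIs in 11 of 33 cells with vehicle. The ganglion value came from 117 UMIs in 6 of 58 cells and 51 UMIs in 7 of 69 cells, with 85 of the 117 in 1 cell. With 1 library per group, the difference between tissues was not tested.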

How the results depend on the processing

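Of the single-gene ratios recomputed under each alternative, 836 stayed within the counting interval of the reported value, 314 moved beyond it, and 8 reversed, that is, were reported at 2-fold or more and took the opposite sign. Counting ratios of any size, 81 of 1158 took the opposite sign, among them Cxcl10 in DRG myelinating Schwann-like cells at 1.09 in female-called cells and Cxcl1 in DRG macrophage-like cells at -0.59 in female-called cells. Depth and cell number limit the values from macrophage-like and other small classes. The alternatives without the top cell of each library and with the largest cluster alone were added after seeing the data. The cause of each shift was not tested. Cxcl10 in DRG monocyte-like cells was at -2.87 in female-called cells and -0.63 without the top cells. Cxcl2 in DRG monocyte-like cells was at 0.024 with no doublets removed and 0.59 at resolution 0.5. Ccl9 in DRG neutrophil-like cells was at 0.0050 without the top cells. Among growth plate cells, Ccl2 in basophil and mast-like cells was at 1.42 in male-called cells, Cxcl2 in chondrocyte-like cells at -0.14 with no doublets removed, and Ccl4 in granulocyte progenitor-like cells at 0.58 in female-called cells.

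The count of growth plate gene and class pairs 2-fold higher with 1NMPP1, reported as 0, was 1 with at least 500 genes, with no doublets removed or after thinning. It was 2 in male-called cells, with each cell weighing alike, without the top cells or in the largest cluster, 3 at resolution 0.5 and 4 in female-called cells. The count of lower pairs, reported as 7, was 4 in male-called cells, 3 in female-called cells and 2 after thinning. In ganglia the higher pairs, reported as 7, were 2 in male-called cells and 4 after thinning, and the lower pairs, reported as 10, were 6 in female-called cells, 4 after thinning and 6 with at least 50 UMIs. With no doublets removed, neutrophil-like cells held 51.19% of the UMIs of the 10 genes in both growth plate libraries, basophil and mast-like cells 34.5% of Ccl3 in the 1NMPP1 growth plate, and satellite glia-like cells 77.8% of Cxcl10 in 1NMPP1 DRG and 83.6% in vehicle DRG. No paired analysis was possible because each group has 1 library and the result comes from no test.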

Other observations

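Lymphoid and dendritic classes carried Ccl4 as well. Growth plate NK and innate lymphoid-like cells, 96 with 1NMPP1 and 58 with vehicle, had Ccl4 at 788 and 607 CPM and Ccl3 at 170 and 132 CPM. Plasmacytoid dendritic-like cells had Ccl4 at 356 CPM with 1NMPP1 and 625 CPM with vehicle, and T cell-like cells had it at 116 and 340 CPM. Cxcl10 in T cell-like cells had 49 UMIs with 1NMPP1, 47 of them in 1 cell, and 2 UMIs with vehicle. Osteoclast-like cells, 21 in each library, had Ccl9 at 341 CPM (296 to 391) with 1NMPP1 and 672 CPM (602 to 746) with vehicle.

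In the ganglia, an unnamed cluster led by the basophil genes Prss34 and Mcpt8, with 16 cells of the 1NMPP1 and 18 of the vehicle library, had Ccl4 at 3325 and 1787 CPM and Ccl3 at 1329 and 651 CPM. An unnamed growth plate cluster led by Fabp4, Cxcl12 and Col4a1, with 19 and 22 cells, had Cxcl1 at 210 and 212 CPM, and Ccl2 at 314 CPM with 1NMPP1 and 41.9 CPM with vehicle.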
